A study of Mus musculus with 2 samples.

Results

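The microRNAs of the miR-217 and miR-216 cluster, together with miR-375, were examined in small RNA libraries of mouse liver. The group holds 6 mature microRNAs, selected on their measured values in these tables and taken by exact name: mmu-miR-217-5p, mmu-miR-216a-5p, mmu-miR-216a-3p, mmu-miR-216b-5p, mmu-miR-216b-3p and mmu-miR-375-3p. Of these, 2 were among the 484 microRNAs listed in experiment 1, and 6 were among the 1915 listed in experiment 2.

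Female C57BL/6 mice of 8 to 10 weeks were kept on the liquid Lieber-DeCarli control diet for 5 days. The ethanol-fed mice then received this diet with 5% (v/v) ethanol for 10 days and the pair-fed mice an isocaloric control diet, and both were gavaged on day 16, with 6 g/kg ethanol or with dextrin-maltose of equal calories, 9 h before liver collection. The feeding time follows the mouse protocol, whereas the design statement of the series gives 16 days. Each of the 2 experiments compared 1 ethanol-fed with 1 pair-fed library, to find small RNAs that change with ethanol feeding, and the animals or pools behind a library were not named.

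MicroRNAs are cut from hairpin precursors and guide Argonaute proteins to messenger RNAs that pair with the seed near the 5′ end of the microRNA. The miR-216 and miR-217 hairpins lie close together in the genome and are known as microRNAs of the exocrine pancreas. miR-217 has also been described as an ethanol-responsive microRNA of hepatocytes that is directed at *Sirt1*, which encodes a deacetylase of hepatic lipid metabolism. miR-375 is abundant in pancreatic islets, where it restrains insulin secretion, and is found in other epithelia and endocrine cells.

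The mature sequences are shown because they decide which members can be told apart by reads and which share a seed. RefSeq (GRCm38.p6) gave a mature sequence for 5 of the 6 members, written 5′ to 3′ with the seed, bases 2 to 8, in capitals.
miR-217-5p: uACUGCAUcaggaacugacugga
miR-216a-5p: uAAUCUCAgcuggcaacuguga
miR-216b-5p: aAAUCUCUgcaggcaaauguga
miR-216a-3p: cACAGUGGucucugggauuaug
miR-216b-3p: aCACUUACcuguagagauucuu
None of the 5 full seeds was shared with another of the mature entries compared. miR-216a-5p and miR-216b-5p had bases 2 to 7 in common, and were identical at 18 of 22 positions. They differed at positions 1, 8, 11 and 17, counted from the 5′ end. The nearest mature microRNA to either was the other, at an edit distance (single-base changes, insertions or deletions) of 4. For miR-217-5p the nearest was miR-196a-2-3p at an edit distance of 7, which was listed at 0 in both libraries of experiment 2.

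The 3 hairpins of the cluster lay on the plus strand of chromosome 11 (GRCm38) within 17645 bp, in the order Mir216b, Mir216a, Mir217, with gaps of 10735 and 6644 bp. The hairpins are shown with their mature arms in capitals, since the arms are compared below.
Mir216b, chr11:28746191-28746276: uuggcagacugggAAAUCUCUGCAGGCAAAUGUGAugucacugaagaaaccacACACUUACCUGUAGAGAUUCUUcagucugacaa
Mir216a, chr11:28757012-28757083: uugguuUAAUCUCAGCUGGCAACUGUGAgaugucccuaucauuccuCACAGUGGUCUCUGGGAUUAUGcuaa
Mir217, chr11:28763728-28763835: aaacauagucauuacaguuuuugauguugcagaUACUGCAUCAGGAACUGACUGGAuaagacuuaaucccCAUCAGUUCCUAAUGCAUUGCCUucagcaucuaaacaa
In the GENCODE vM21 annotation, Mir216a and Mir217 lay in intron 2 of Gm12082, a long intergenic non-coding RNA of 4 exons on the same strand. Mir216b lay outside it, within the span of the RefSeq non-coding gene Mir217hg. A further hairpin, Mir216c, lay wholly antisense to Mir216b over 69 bp. Mir375 lay elsewhere, at chr1:74900658-74900721 on the minus strand, in no annotated gene, between *Cryba2* and *Cfap65*. The map of the locus shows these positions.

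**Figure D1:**
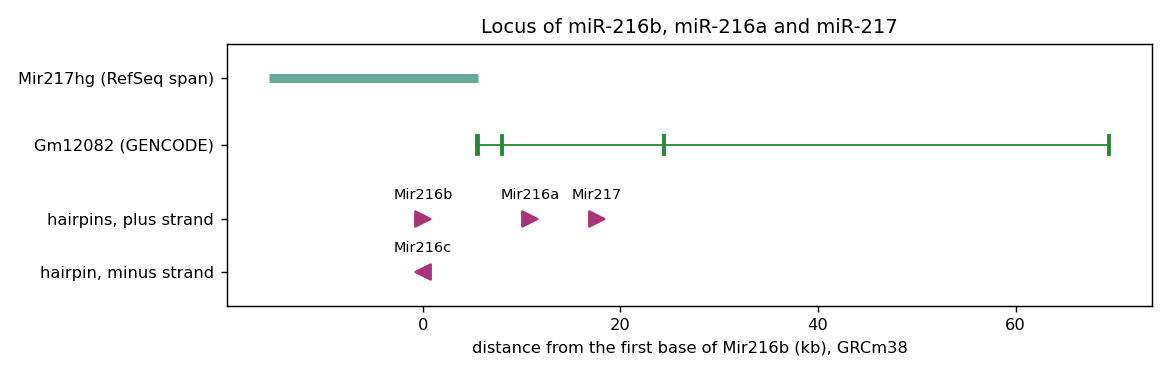
Map of the miR-217 and miR-216 locus on mouse chromosome 11, with the distance from the first base of Mir216b in kilobases on the x axis. Triangles mark the hairpins and point in the direction of transcription, vertical green bars are the 4 exons of Gm12082, and the thick bar is the RefSeq span of Mir217hg. Mir216a and Mir217 fall between the second and the third exon of Gm12082, and Mir216b lies before its first exon.

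Experiment 1 holds reads and had 4170601 (pair-fed) and 4311802 (ethanol-fed) reads on microRNAs. Experiment 2 holds reads per 1000000 reads on microRNAs (RPM), whose low values fell on steps of 0.0925 and 0.0924 RPM, which gives an estimated 10811814 and 10819746 reads. The lowest value above 0 in experiment 2 was 0.92 RPM, or 10 reads, so a microRNA listed at 0 there may have had fewer reads than this. Experiment 1 lists single reads, and each of its 484 microRNAs had at least 1 read in both libraries together. Whether a microRNA not listed there had 0 reads is not known. As a check of the tissue, miR-122-5p, the abundant microRNA of hepatocytes, had 12392 and 9529 reads in experiment 1, pair-fed first. These are 2971 and 2210 RPM, beside 182938 and 156660 RPM in experiment 2. miR-192-5p was at 388161 and 373090 RPM in experiment 1 and at 117318 and 109724 RPM in experiment 2. The makeup of the 2 tables thus differed, which limits levels set side by side across them, and the cause was not tested. With 1 library per condition, every comparison is between libraries and not conditions, the intervals (95%, exact) cover counting error only, and no p-value was computed. In bulk liver, a change in the number of cells of a type cannot be told apart from a change in RNA per cell.

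In experiment 2, each of the 6 members was higher in the ethanol-fed than in the pair-fed library, and 4 of them had a pair-fed value of 0. With ethanol, miR-217-5p was the most abundant member and miR-375-3p the next. In experiment 1, miR-375-3p was lower in the ethanol-fed library and the cluster was close to absent from the table. These values chose the members and are given as a description.

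miR-217-5p, the member directed at *Sirt1*, was at 1.39 RPM in the pair-fed library of experiment 2, which is 15 reads (8.40 to 24.7). With ethanol it was at 56.4 RPM, or 610 reads (563 to 660). It ranked 396 of 438 microRNAs above 0 by level in the former and 144 of 433 in the latter. The level was thus 40.6-fold higher in the ethanol-fed library (24.4 to 73.1), or 5.25 on the log2 scale with 1 read added to each library. miR-217-5p was not listed in experiment 1, so its pair-fed and ethanol-fed levels were measured in 1 experiment.

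miR-216b-5p and miR-216a-5p, the main arms of their hairpins, each had a pair-fed value of 0 in experiment 2. In the ethanol-fed library miR-216b-5p was at 12.6 RPM, or 136 reads (114 to 161), and ranked 228. miR-216a-5p was at 11.7 RPM, or 127 reads (106 to 151), and ranked 233. No fold is given against a value listed at 0. Both ethanol-fed levels stood above the lowest listed value of 0.92 RPM by a margin wider than the counting error.

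The 3p arms of these hairpins were found at low levels in the same library. miR-216b-3p was listed at 0 without and at 2.50 RPM with ethanol, or 27 reads (17.8 to 39.3). miR-216a-3p was listed at 0 without and at 1.66 RPM with ethanol, or 18 reads (10.7 to 28.4). The lower bound for miR-216a-3p was thus close to the 10 reads of the lowest listed value. In experiment 1, miR-216b-5p had 0 reads without and 4 reads (1.09 to 10.2) with ethanol. The other 3 arms of miR-216 were not listed there.

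miR-375-3p, the member of another chromosome, was at 4.53 RPM in the pair-fed library of experiment 2, or 49 reads (36.3 to 64.8). In the ethanol-fed library it was at 32.4 RPM, or 350 reads (314 to 389), which is 7.14-fold higher (5.28 to 9.83). In experiment 1 it had 355 reads (319 to 394) in the pair-fed library, or 85.1 RPM, and 205 reads (178 to 235) in the ethanol-fed library, or 47.5 RPM. There it was 1.79-fold lower in the ethanol-fed library (1.50 to 2.14). The 2 experiments therefore went in opposite directions for miR-375-3p, with log2 ratios of -0.84 and 2.81. The difference between the experiments was not tested. With RPM set side by side across tables that were scaled separately, the pair-fed level of experiment 1 was the highest of the 4 and the pair-fed level of experiment 2 the lowest.

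**Figure D2:**
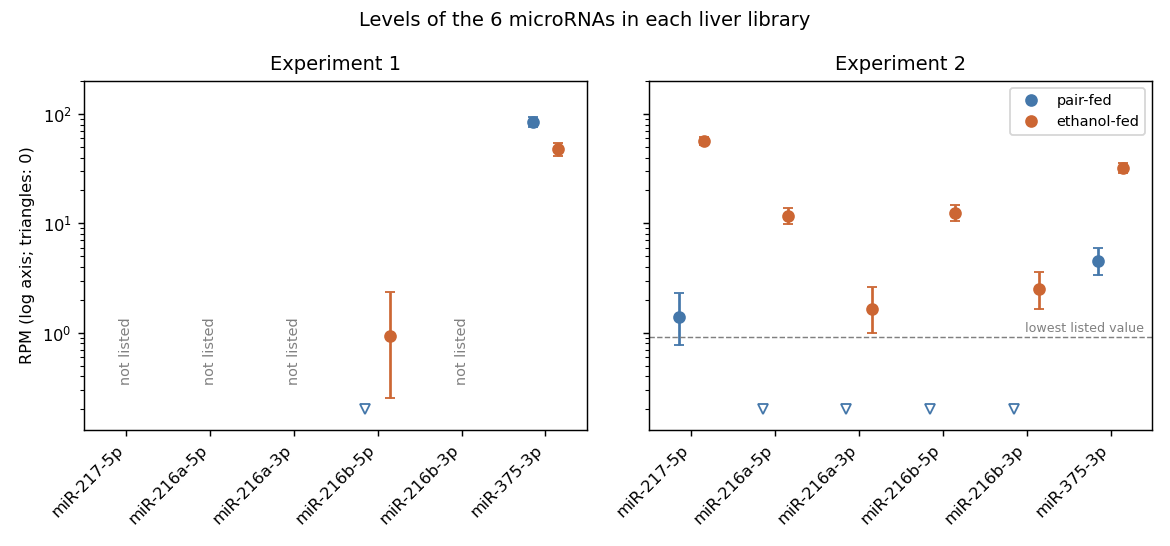
Level of each of the 6 microRNAs in each library, in RPM on a log axis, for experiment 1 (left) and experiment 2 (right). Points are single libraries, bars are 95% counting intervals, open triangles are values of 0, and the dashed line is the lowest listed value of experiment 2, 0.92 RPM. In experiment 2 every ethanol-fed point lies above its pair-fed point or triangle, and in experiment 1 the ethanol-fed point of miR-375-3p lies below the pair-fed point.

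Within the ethanol-fed library of experiment 2, the order of the levels was miR-217-5p, miR-375-3p, miR-216b-5p, miR-216a-5p, miR-216b-3p and miR-216a-3p. miR-217-5p had 1.74 times the reads of miR-375-3p (1.53 to 1.99). miR-216b-5p and miR-216a-5p did not differ beyond counting error, with a ratio of 1.07 (0.835 to 1.37). The intervals of miR-216b-3p and miR-216a-3p overlapped as well. Levels of different microRNAs are compared here in reads, and those of the cluster are 22 or 23 nucleotides long.

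The cluster as a whole went from 1.39 to 84.8 RPM between the libraries of experiment 2, and the 6 members together from 5.92 to 117 RPM. After ethanol the cluster had 918 reads, of which miR-217-5p made up 66.4% (63.3 to 69.5). miR-216b-5p made up 14.8% (12.6 to 17.3) and miR-216a-5p 13.8% (11.7 to 16.2). miR-217-5p thus had 4.49 times the reads of miR-216b-5p (3.72 to 5.44) and 4.80 times those of miR-216a-5p (3.96 to 5.86).

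**Figure D3:**
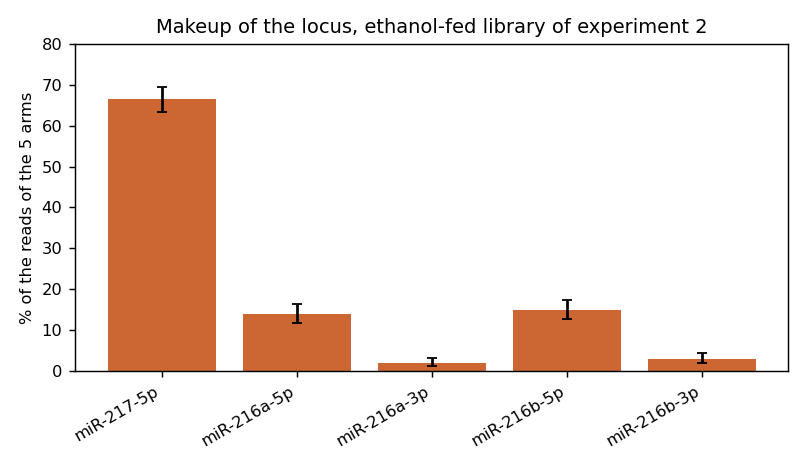
Share of each arm in the 918 reads of the miR-217 and miR-216 cluster, in percent, in the ethanol-fed library of experiment 2. Bars are shares of reads and error bars are exact 95% binomial intervals. The bar of miR-217-5p stands at 66.4%, above the miR-216b-5p and miR-216a-5p bars, whose intervals overlap.

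The 5p arms carried 95.1% of the reads of the cluster (93.5 to 96.4). For miR-216a the 5p arm had 87.6% of the reads of both arms (81.1 to 92.5), and for miR-216b it had 83.4% (76.8 to 88.8). The same library held 112 microRNA names with both arms above 0, in which the more abundant arm had a median share of 91.9% (quartiles 73.5 and 98.8). Both shares of miR-216 lay between these quartiles. miR-217-3p, miR-216c-5p, miR-216c-3p and miR-375-5p, the remaining arms of the same hairpins and of Mir216c, were listed at 0 in both libraries of experiment 2 and were not listed in experiment 1.

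A microRNA with at least 10 reads in both libraries of a table together was compared with all others, and was counted as higher or lower at a ratio of at least 2-fold. In experiment 2, 6 of 6 members were counted as higher, beside 50 of all 469 microRNAs compared (10.7%), and 0 of 6 as lower, beside 71 of 469 (15.1%). Of the 469, 31 had a value of 0 in the pair-fed library alone and 36 in the ethanol-fed library alone. As no value above 0 was under 10 reads, the added read placed each of these past 2-fold. All 31 are thus among the 50, and all 36 among the 71. The 31 include every miR-216 arm of the group. In experiment 1 the 1 member compared, miR-375-3p, was counted neither as higher nor as lower, beside 38 of 302 microRNAs higher (12.6%) and 39 of 302 lower (12.9%). Since the members were chosen from these values, nothing is read from the counts. The median log2 ratio of all microRNAs compared was -0.013 in experiment 1 and 0.0026 in experiment 2. That of the 6 members in experiment 2 was 5.03, or 3.17 with values listed at 0 set to the lowest listed value, at which 5 of the 6 were counted as higher, beside 22 of all 469.

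Ratios with 1 read added were ranked among the 271 microRNAs that reached 100 reads in either library of experiment 2. The 4 highest belonged to miR-216b-5p, miR-216a-5p, miR-217-5p and miR-375-3p. The next was miR-690, which went from 5.73 to 23.3 RPM. miR-345-3p followed, from 32.5 to 89.9 RPM, with a log2 ratio of 1.47. The 4 members reached 100 reads in the ethanol-fed library alone and were chosen from these values, so nothing is read from their places. With values of 0 at the lowest listed value, the log2 ratio was 5.25 for miR-217-5p and 3.64 for miR-216b-5p. It was 3.54 for miR-216a-5p and 2.81 for miR-375-3p. Of the 31 microRNAs with a value of 0 in the pair-fed library alone, miR-216b-5p, miR-216a-5p and miR-216b-3p had the highest ethanol-fed levels. The next, miR-5128, was at 1.94 RPM, and miR-216a-3p was placed 8th.

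**Figure D4:**
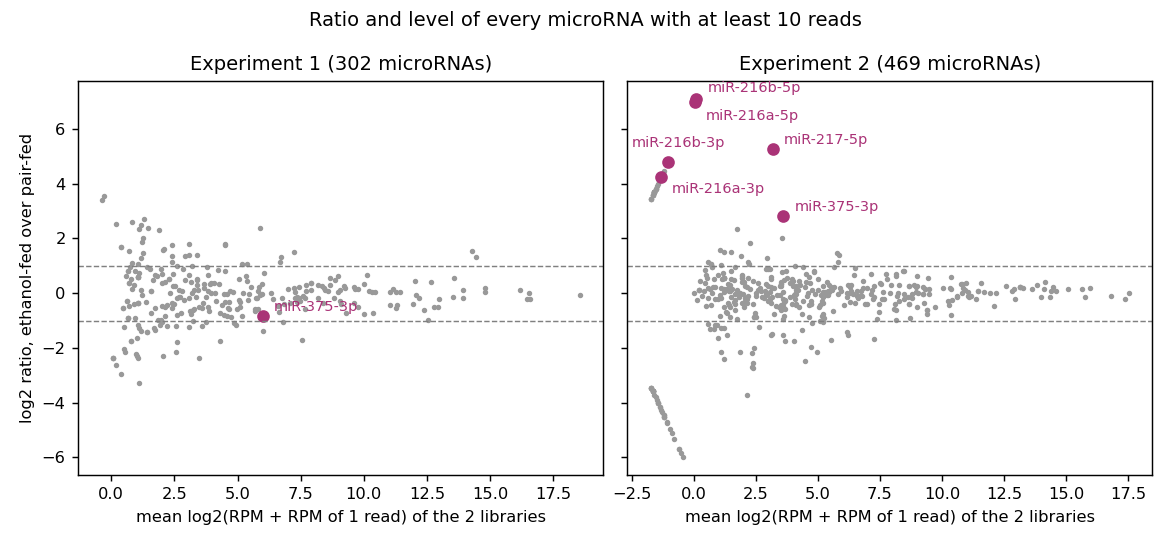
Log2 of the ethanol-fed over the pair-fed level (y axis) against the mean log2 level of both libraries in RPM (x axis) for the 302 microRNAs of experiment 1 and the 469 of experiment 2, after 1 read was added to each library. Purple points are members, and dashed lines mark 2-fold. Points on the slanted lines at the left of experiment 2 are listed at 0 in 1 library, so that their height is set by the added read. In experiment 2 the 6 members lie above the upper dashed line, and in experiment 1 miR-375-3p lies just inside the lower one.

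Likeness of pattern was measured by the distance of log2 ratios, and for microRNAs with a pair-fed value of 0 it is set by how that 0 is treated. Among 270 other microRNAs that reached 100 reads in experiment 2, the nearest to miR-217-5p were miR-216a-5p (1.74), miR-216b-5p (1.84) and miR-375-3p (2.44) with 1 read added. With values of 0 at the lowest listed value the distances were 1.71, 1.62 and 2.44, and with 0.1 read added miR-375-3p was the nearest, at 2.50, and both miR-216 arms left the nearest 3. For miR-375-3p the distance was taken over the ratios of both experiments, among 282 others with at least 10 reads in each. With 1 read added the nearest were miR-298-5p (0.79), let-7g-3p (1.04) and miR-92a-1-5p (1.23), all listed at 0 (pair-fed) and at 1.02 to 1.20 RPM (ethanol-fed) in experiment 2, close to the lowest listed value. These places rest on the added read, and with values of 0 at the lowest listed value the nearest were miR-690 (1.24), miR-125a-3p (1.39) and miR-7015-3p (1.80). Of the 283 microRNAs compared in both experiments, 82 were lower in the ethanol-fed library of experiment 1 and higher in that of experiment 2, as miR-375-3p was. A log2 fall of at least 0.8 in the former with a rise of at least 2-fold in the latter was seen for 4 of them. miR-375-3p was 1 of these. The others had a pair-fed value of 0 in experiment 2, so that their rise rests on the added read.

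The absence of miR-217-5p from experiment 1 was set against other microRNAs of the same level. Of the 50 microRNAs at 30 to 100 RPM in the ethanol-fed library of experiment 2, 47 were listed in experiment 1. Of the 75 at 10 to 30 RPM, the range of miR-216a-5p and miR-216b-5p, 66 were listed. The microRNA with the highest ethanol-fed level of experiment 2 that was not listed in experiment 1 was miR-7a-5p, at 5110 RPM pair-fed and 3707 RPM ethanol-fed. miR-374c-5p and miR-1a-3p came next, miR-217-5p was the 7th and miR-216a-5p the 12th. Absence from the list was therefore not confined to microRNAs of low level.

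Lists of microRNAs known from other cell types were then set beside the members, and their part in the members' result was not tested. The epithelium list (the miR-200 family, miR-203-3p and miR-205-5p) had 6 of 7 ratios above 0 in experiment 2, with a median log2 ratio of 0.80 (-0.24 to 0.96) and a summed level of 2060 RPM pair-fed and 2846 RPM ethanol-fed. None of the 7 reached 2-fold. In experiment 1, 3 of its 5 microRNAs compared were above 0, with a median of 0.026 and sums of 321 and 384 RPM. miR-203-3p, the most abundant of this list, went from 1539 to 1958 RPM in experiment 2, and miR-200a-3p from 257 to 453 RPM.

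For the endocrine list, miR-7a-5p, which like miR-375 is abundant in pancreatic islets, had a log2 ratio of -0.46 in experiment 2. miR-7b-5p went from 15.7 to 10.5 RPM and miR-184-3p from 3.70 to 5.45 RPM. miR-7a-2-3p and miR-153-3p were listed at 0 in both libraries. The summed level of the 5 was 5129 RPM pair-fed and 3723 RPM ethanol-fed, and 0 of the 3 compared reached 2-fold. In experiment 1, miR-184-3p had 38 and 43 reads and the other 4 were not listed.

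The hepatocyte list (miR-122, miR-802, miR-192, miR-194 and miR-148a) had 3 ratios above and 3 below 0 in each experiment, with medians of 0.0075 and -0.036 and none at 2-fold. The red cell list (both arms of miR-144, miR-451a and miR-486a-5p) had 3 of 4 counted as higher in experiment 1, where its sum went from 11559 to 33915 RPM, and 4 of 4 below 0 in experiment 2, where it went from 1826 to 1152 RPM. The white cell list was below 0 in 4 of 4 and 5 of 5, with medians of -0.57 and -0.87, and sums of 404 and 336 RPM in experiment 1 and 886 and 473 RPM in experiment 2. For the mesenchyme list the medians were 0.71 and 0.034, with 2 of 4 counted as higher in experiment 1 and 0 of 4 in experiment 2. The sums of this list were 96518 and 96073 RPM in experiment 1 and 18978 and 24067 RPM in experiment 2.

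**Figure D5:**
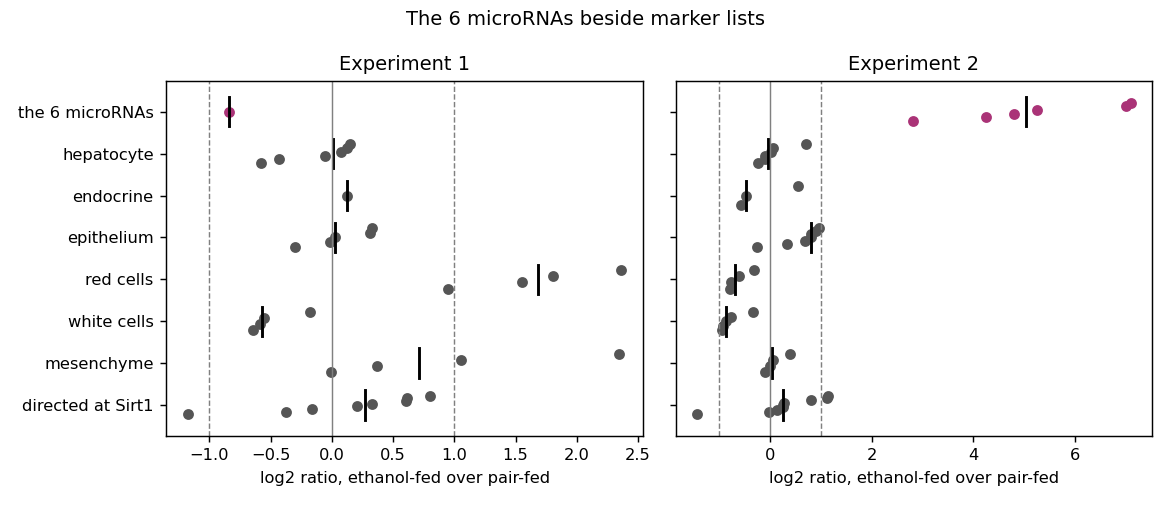
Log2 of the ethanol-fed over the pair-fed level for the 6 microRNAs (purple) and for each list (grey) in experiments 1 and 2, with 1 point per microRNA with at least 10 reads in both libraries together. Vertical black marks are medians and dashed lines mark 2-fold. In experiment 2 the lowest member, at 2.81, lies above the highest point of every other list. The members were chosen from these values and the places of the miR-216 arms rest on the added read, so nothing is read from this.

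Since miR-217 is known for its action on *Sirt1*, the match to its seed was searched in the 3′ untranslated region (UTR) of the longest form of the gene in GENCODE vM21, on the strand of the transcript. The letters ATGCAGT, which pair with bases 2 to 8 of miR-217-5p, occurred 1 time in the *Sirt1* UTR of 1631 bases, at bases 1355 to 1361 and followed by A. The match is shown in capitals within 30 bases of the transcript, at chr10:63319274-63319303 (GRCm38, minus strand).
Sirt1 site: atttatttggctacactaaagaATGCAGTa
Of the 2892 UTRs within 20% of this length, 354 (12.2%) held the letters. *Becn1*, an autophagy gene, held 2 matches to AGAGATT, the letters for miR-216b-5p, and neither was followed by A. At least 1 such match was held by 23.5% of UTRs of like length. A match is a description of the letters, and the levels of these messenger RNAs were not analysed here.

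Other microRNAs known to be directed at *Sirt1* were compared with miR-217-5p. Of the 11 in the list, 9 were compared in experiment 2, with 2 counted as higher, 1 as lower and a median log2 ratio of 0.27. miR-22-3p, the most abundant, went from 5513 to 6642 RPM. miR-34a-5p, a target of p53, was the 1 counted as lower, from 119 to 44.5 RPM, and miR-9-5p and miR-34b-5p were the 2 counted as higher, at 2.96 and 6.65 RPM and at 0.92 and 2.13 RPM, pair-fed first. In experiment 1, 8 were compared, with 0 counted as higher, 1 as lower (miR-132-3p, 23 and 10 reads) and a median of 0.27. The summed level of the list was 7108 and 8457 RPM in experiment 2, beside which the ethanol-fed level of miR-217-5p was 56.4 RPM.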

How the data were processed

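Small RNAs of total liver RNA were selected by gel electrophoresis, amplified and sequenced. For experiment 1 the authors deposited counts of reads per mature microRNA without normalization, and for experiment 2 RPM, which sum to 999899 (pair-fed) and 999896 (ethanol-fed). The authors' log2 fold changes and p-values for experiment 2 were not used. The group of each column of sample values was read from the column's name, and 0 columns were without a group. The sample labels give 1 sample per condition and no replicate numbers. The submitters' processing notes name mm8. The aligner, annotation and filters are not given in the sources used here. Coordinates are of GRCm38.

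RPM were turned into reads by the step of values under 60 RPM, of which 97.0% and 96.6% were whole within 0.0055 RPM. Ratios used 1 read added per library and a minimum of 10 reads in both libraries together. Fold intervals were exact conditional binomial. They were run on simulated reads with counting error alone, without spread between libraries or a cut of low values to 0. That run checked the computation and not these limits. Read intervals were exact Poisson. Values of 0 in experiment 2 were taken as 0 reads. A floor of 3 reads in experiment 1 is 0.719 (pair-fed) or 0.696 RPM (ethanol-fed). The exact Poisson interval of a pair-fed count of 0 there reaches 0.884 RPM.

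The members, lists and target genes were chosen with earlier results of these data known, and from general knowledge. Named besides the members were the other arms of their hairpins, the 3 microRNAs most like miR-217-5p and miR-375-3p, and examples of each list, taken by level. miR-690, miR-345-3p, miR-5128 and the microRNAs not listed in experiment 1, and the list members named for their direction, were named after their values were seen. The alternatives were other scalings, pseudocounts of 0.1 and 10 reads, no minimum, a minimum of 100 reads, and values of 0 set to the lowest listed value. Ratios and intervals were computed with scipy 1.17.1, pandas 2.3.3 and numpy 2.4.6 in Python 3.11.15, and plots were drawn with matplotlib 3.10.9.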

Additional observations from a re-analysis of the deposited data

Results flagged for a closer look

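miR-375-3p moved in opposite directions in the 2 experiments: the log2 of its ethanol-fed over its pair-fed level was -0.84 in experiment 1 (355 and 205 reads) and 2.81 in experiment 2 (49 and 350 estimated reads). The difference was not tested, because each experiment holds 1 library per condition.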

How the results depend on the processing

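The direction of each member's ratio was the same under every alternative run. For the 4 miR-216 arms it could not have turned, given their pair-fed value of 0, so nothing is read from it. The log2 ratio of miR-217-5p ranged from 4.63 to 5.34, and that of miR-375-3p from 2.61 to 2.83 in experiment 2 and from -0.87 to -0.79 in experiment 1. Of 40 values of single members, 28 stayed within their counting interval or, where it has no upper bound, within 1.5 times. The values under a minimum of 100 reads are among the 28 by construction, since it only drops microRNAs. So are those of miR-217-5p and miR-375-3p with values of 0 at the lowest listed value, as neither had a 0 in experiment 2. The other 12 were those of the 4 miR-216 arms with 0.1 read added (7.50 to 10.4), with 10 reads added (1.48 to 3.87) and with values listed at 0 set to the lowest listed value (0.79 to 3.64), where their pair-fed value of 0 decides the ratio. The median of the members was 7.79, 3.19 and 3.17 under these. The members counted as higher in experiment 2 numbered 5 of 6 with values of 0 at the lowest listed value and 4 of the 4 left with a minimum of 100 reads, and in experiment 1 there was 1, miR-216b-5p, with no minimum. Among all microRNAs of experiment 1, 23 were higher and 17 lower with 10 reads added, 99 and 102 with no minimum, and 10 and 9 with a minimum of 100 reads. In experiment 2, 12 of 298 were higher and 24 lower with a minimum of 100 reads, and 22 of 469 were higher with values of 0 at the lowest listed value. Other scalings moved the median ratio by at most 0.048, taken over the microRNAs compared that were above 0 in both libraries. No paired analysis was possible because the sample labels give 1 sample per condition and no replicate numbers, and each table, scaled on its own, holds 1 library per condition, so that no replicate could be left out either. The 2 ratios of miR-375-3p are given side by side and were not tested together, since the microRNA was chosen with them known. Depth limits the miR-216 3p arms, at 18 and 27 reads, and the reading of values listed at 0.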
